A study of Homo sapiens with 12 samples.

Results

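Propionate and butyrate lowered the RNA of 107 expressed genes more than 3-fold in HK2 cells. HK2 is a single immortalized line of human proximal tubular epithelium, and propionate and butyrate are short-chain fatty acids (SCFAs) that gut bacteria make from fibre. The genes were selected on their measured levels. A gene had to reach 10 CPM (counts per 1000000, which is the expected count divided by the sum of the library and multiplied by 1000000) in each of the 4 libraries without SCFA, and had to stay under 1/3 of the lowest of those 4 levels in each of the 8 libraries with SCFA. Of 58278 listed genes 9542 reached the floor and are called expressed here, and 107 of these, 1.12%, met both conditions. Another 56 expressed genes were raised more than 3-fold over every library without SCFA in every library with SCFA. Because the selection used the contrast of SCFA with no SCFA, the size of the loss is given below as a description, with no test.

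The 12 libraries form 6 groups of 2 biological replicates. Cells were left untreated (Ctrl), received 5 ng/mL of TNF-α over 3 h (TN), or received the same TNF-α and an SCFA for 24 h. Propionate was used at 15 mM and butyrate at 3 mM, and they came before TNF-α in PRTN and BUTN and after it in TNPR and TNBU. All groups share the cell line and medium, the doses of the SCFAs differ, and no cells kept for 24 h after TNF-α without SCFA were analysed here. The general treatment text in the labels mentions thapsigargin and JQ1, but the labels of the individual libraries give TNF-α and an SCFA, and the latter were followed.

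TNF-α is a cytokine that switches on NF-κB and AP-1 transcription factors in tubular cells, which then make cytokines, adhesion molecules and interferon-type proteins. Propionate and butyrate can act on G protein-coupled receptors and also inhibit histone deacetylases, enzymes that remove acetyl groups from histones and other proteins. Inhibition of these enzymes raises the RNA of some genes and lowers that of others.

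The deposited counts summed to between 27269986 and 33851130 per library, so that 3 counts correspond to 0.0886 to 0.110 CPM, and mitochondrial genes took 5.86% to 9.46% of them. Of 6 epithelial markers all had a median over 1 CPM across the 12 libraries, with a summed level of 1120 to 1257 CPM without SCFA and 1878 to 2467 CPM with SCFA. CDH1, however, the gene of E-cadherin, measured only 0.0689 to 0.281 CPM without SCFA and 8.85 to 14.7 CPM with SCFA. EPCAM, another of the epithelial markers, went against the sum, with 51.8 to 54.3 CPM without SCFA and 13.8 to 23.7 CPM with SCFA. Of 10 proximal tubule markers 7 had a median over 1 CPM, and their sum was 658 to 734 CPM without SCFA and 296 to 328 CPM with SCFA. SLC22A6 was listed at 0 in every library, SLC34A1 reached at most 0.0886 CPM and LRP2 at most 1.03 CPM. Leukocyte markers summed to at most 5.31 CPM and endothelial markers to at most 3.85 CPM, whereas fibroblast markers, mainly COL1A1 and LUM, summed to 48.7 to 56.8 CPM without SCFA and 213 to 260 CPM with SCFA. The part of these shifts in the results below was not tested.

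Some promoter sequences are shown first, because starts poor in CG dinucleotides, a feature the selection did not use, made up a larger share of the lowered genes than of other expressed genes, although a minority of both. Each stretch is the 150 bases before the transcription start in RefSeq (GRCh38.p14), read 5′ to 3′ on the strand of the gene. For CSF2, which encodes the cytokine GM-CSF (chr5:132073639-132073788, plus strand), the capitals mark 2 matches to the NF-κB pattern GGNNNTTCC, which begin 102 and 85 bases before the start. For GBP1 (chr1:89065209-89065358, minus strand), IFI44L (chr1:78620298-78620447, plus strand) and PSMB10 (chr16:67936851-67937000, minus strand), all genes of the interferon response, the capitals mark a match to the interferon element pattern TTCNNTTTC on either strand, which begins 126, 73 and 21 bases before the start.
CSF2: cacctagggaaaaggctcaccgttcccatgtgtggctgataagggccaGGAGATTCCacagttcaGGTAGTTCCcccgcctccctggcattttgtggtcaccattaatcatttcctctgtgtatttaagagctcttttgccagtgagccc
GBP1: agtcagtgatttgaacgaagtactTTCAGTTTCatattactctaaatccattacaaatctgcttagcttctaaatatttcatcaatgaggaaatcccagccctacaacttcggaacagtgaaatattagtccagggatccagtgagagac
IFI44L: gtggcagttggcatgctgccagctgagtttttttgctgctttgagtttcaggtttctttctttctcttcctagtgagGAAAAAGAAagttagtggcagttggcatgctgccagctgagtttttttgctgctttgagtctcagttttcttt
PSMB10: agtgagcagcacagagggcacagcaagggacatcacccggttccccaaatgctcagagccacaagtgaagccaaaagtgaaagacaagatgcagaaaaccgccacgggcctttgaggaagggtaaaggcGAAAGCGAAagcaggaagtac

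For the next 3 genes the capitals mark CG dinucleotides. ITGB6 (chr2:160200273-160200422, minus strand) encodes the β6 integrin subunit and UGT2B7 (chr4:69096324-69096473, plus strand) a liver and kidney enzyme of glucuronidation, and neither stretch holds a CG. GTF3C6 (chr6:110958556-110958705, plus strand), chosen as a contrast after its values were seen, encodes a subunit of the general factor TFIIIC and holds 19. ITGB6 and GTF3C6 kept 8.53% and 15.1% of their level under SCFA, so both kinds of start occur among the lowered genes.
ITGB6: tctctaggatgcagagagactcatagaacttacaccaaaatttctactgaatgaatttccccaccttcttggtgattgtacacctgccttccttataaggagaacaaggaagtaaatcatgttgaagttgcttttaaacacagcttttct
UGT2B7: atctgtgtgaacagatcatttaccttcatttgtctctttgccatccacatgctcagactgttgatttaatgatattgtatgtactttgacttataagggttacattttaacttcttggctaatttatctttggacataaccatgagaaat
GTF3C6: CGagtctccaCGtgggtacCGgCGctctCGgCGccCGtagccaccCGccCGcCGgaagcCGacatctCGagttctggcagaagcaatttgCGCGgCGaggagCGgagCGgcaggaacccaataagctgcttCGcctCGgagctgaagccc

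Over the 107 genes, RNA from these genes made up 1.31% to 1.35% of all counts in the Ctrl and TN libraries and 0.196% to 0.283% in the SCFA libraries. Levels without SCFA ran from 10.7 CPM for MYO3A to 1818 CPM for IGFN1, with a median of 42.8 CPM, against 45.2 CPM for all expressed genes. The ratio of the highest SCFA level to the lowest level without SCFA ranged from 0.0543 for CLDN2 to 0.332 for ORAI3 with a median of 0.247, and the median over all expressed genes was 1.17. In bulk RNA, fewer cells that express a gene and less RNA per cell cannot be told apart.

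Expressed as the share of the mean Ctrl and TN level that was left, the median gene kept 17.1% (PRTN), 21.0% (BUTN), 16.9% (TNPR) and 18.1% (TNBU). Averaged over the 8 SCFA libraries the share ran from 2.90% for CLDN2 to 29.4% for SCRN1, and 14 genes kept under 10%. The genes just inside the threshold were HOXA-AS2, CASD1 and ORAI3, with ratios of 0.329, 0.331 and 0.332. Just outside it stood EPC1, WASHC2C and EPDR1 with ratios of 0.3395, 0.3399 and 0.341.

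**Figure D1:**
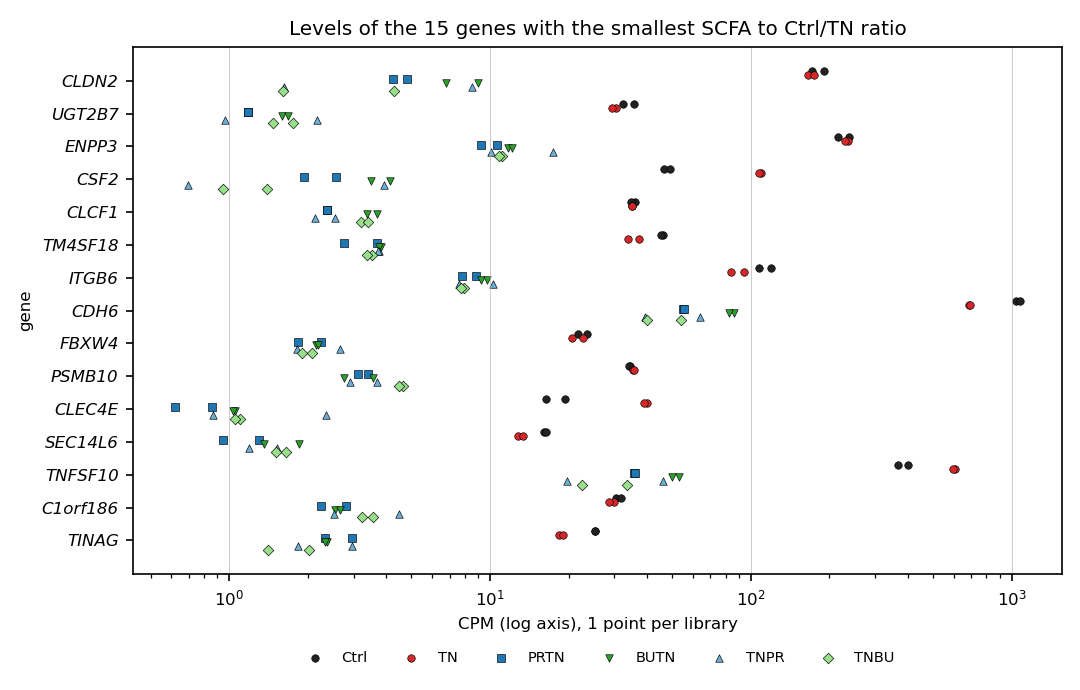
CPM (log axis) of the 15 genes with the smallest ratio of the highest SCFA to the lowest Ctrl or TN level, with 1 point per library and colours and shapes for the 6 groups. All 8 SCFA points of each gene lie to the left of its 4 Ctrl and TN points, as the selection requires, and CLDN2 and CSF2 show the widest spread between the TNPR libraries.

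The libraries of a group did not lie equally close for these genes. In TNPR, replicate 1 was higher than replicate 2 for 88 of 107 genes, by a median of 0.27 on the log2 scale, and in 21 genes the gap exceeded 1.5-fold. In TNBU, replicate 1 was higher for 83 genes, by a median of 0.14, and 12 genes differed more than 1.5-fold in either direction. No gene of the 107 differed by as much between the replicates of Ctrl, TN, PRTN or BUTN, and among all expressed genes 0.943% did so in TNPR and 1.30% in TNBU. The median share left was 18.8% in TNPR replicate 1 and 15.0% in replicate 2, and 17.8% and 16.7% in TNBU. Medians, numbers of higher and lower genes and calls that rest on these libraries are therefore given with and without them, while counts of genes without overlap and intervals use all libraries.

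**Figure D2:**
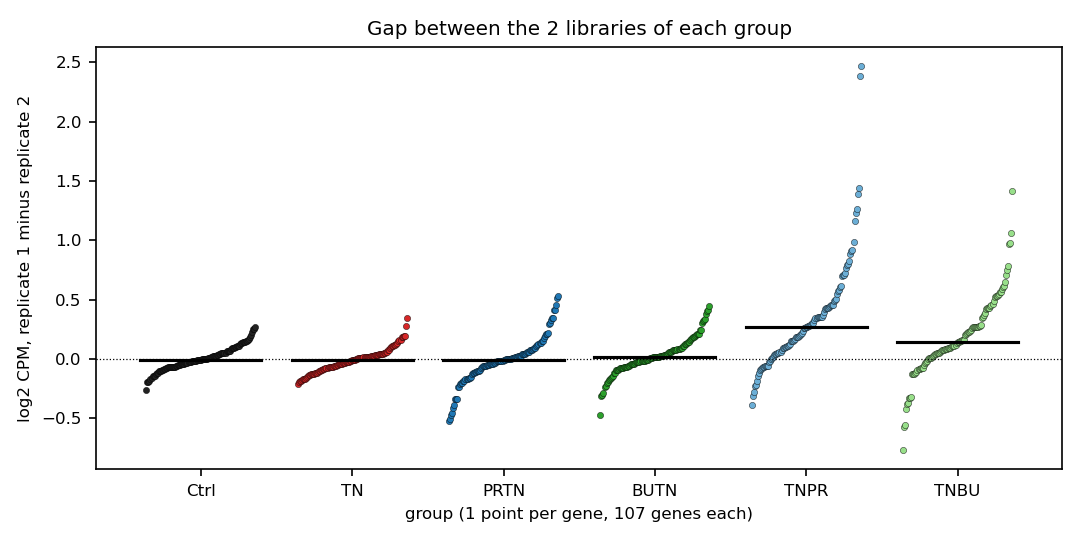
Gap between replicate 1 and replicate 2 (log2 CPM) for each of the 107 genes in the 6 groups, sorted within a group, with a bar at the median. The medians of TNPR (0.27) and TNBU (0.14) lie above 0, and the largest gaps are in TNPR.

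The 6 ligands among the genes, proteins that signal to other cells, had the lowest median of the 12 roles, with 9.58% of the RNA left. CSF2 (ENSG00000164400.5, chr5:132073789-132076170), the gene of the granulocyte and macrophage growth factor GM-CSF, measured 46.5 and 48.9 CPM (Ctrl), 110 and 108 (TN), 2.58 and 1.93 (PRTN), 4.12 and 3.49 (BUTN), 3.91 and 0.698 (TNPR), and 1.39 and 0.947 (TNBU). The SCFA libraries lay below the untreated cells as well as below TN, and BUTN was above PRTN and TNBU in both libraries. CSF1, the gene of the macrophage growth factor M-CSF, measured 145 and 132 CPM (Ctrl), 250 and 272 (TN), 21.6 and 20.3 (PRTN), 34.9 and 30.1 (BUTN), 18.8 and 14.1 (TNPR), and 19.8 and 15.7 (TNBU).

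TNFSF10, which encodes the death ligand TRAIL, was among the most abundant of the genes per length, at 143 CPM per kb of exon without SCFA. It measured 402 and 366 CPM (Ctrl), 608 and 595 (TN), 35.5 and 36.0 (PRTN), 53.0 and 49.9 (BUTN), 46.2 and 19.8 (TNPR), and 33.7 and 22.5 (TNBU). The remaining ligands were CLCF1, a cytokine of the interleukin-6 family, at 8.21% left, WNT5A, a ligand of non-canonical Wnt signalling, at 15.8%, and VEGFC, the growth factor of lymphatic vessels, at 19.3%. Of a list of 59 cytokines, chemokines and growth factors 37 were expressed and 6 of them, 16.2%, were among the lowered genes, against 1.12% of all expressed genes. The loss was not general in the list: its median ratio of the highest SCFA to the lowest other level was 1.03.

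The 8 receptors kept a median of 19.7%, with CLEC4E, a C-type lectin receptor also known as Mincle, far below the others at 3.89%. CLEC4E measured 19.5 and 16.4 CPM (Ctrl), 40.0 and 39.0 (TN), and between 0.622 and 2.35 CPM in the 8 SCFA libraries. IL7R, the receptor chain for interleukin-7, kept 19.9%, and 1 of 45 expressed genes in the list of cytokine and growth factor receptors met the selection. The list does not hold TNFRSF14, a TNF receptor family member also known as HVEM, or BMPR1B, a receptor for bone morphogenetic proteins, both among the lowered genes at 18.3% and 19.6% and named after their values were seen. LRIG3, a membrane protein that modulates growth factor receptors, kept 19.0%.

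Junction, adhesion and matrix genes, 8 in number, kept a median of 11.5%. CLDN2 (ENSG00000165376.10, chrX:106900164-106930861) encodes claudin-2, the tight junction protein that lets cations and water pass between proximal tubule cells, and had the smallest ratio of all expressed genes. It measured 191 and 172 CPM (Ctrl), 165 and 175 (TN), 4.24 and 4.82 (PRTN), 8.97 and 6.77 (BUTN), 8.50 and 1.63 (TNPR), and 4.29 and 1.61 (TNBU). CDH6 (ENSG00000113361.12, chr5:31193686-31329146), a cadherin of kidney tubules, measured 1040 and 1074 CPM (Ctrl), 688 and 690 (TN), 54.9 and 55.3 (PRTN), 86.1 and 82.7 (BUTN), 63.8 and 39.4 (TNPR), and 54.1 and 40.0 (TNBU). The levels of both genes moved in the same direction as the summed proximal tubule markers given above, and the part of that shift was not tested.

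ITGB6, whose integrin activates latent TGF-β, kept 8.53%, and TINAG, a basement membrane protein of the tubule, kept 10.3%. SERPINH1, also known as HSP47, is the chaperone that folds collagen, and measured 716 and 709 CPM (Ctrl), 601 and 676 (TN), 76.0 and 85.0 (PRTN), 134 and 128 (BUTN), 79.3 and 56.2 (TNPR), and 96.8 and 81.2 (TNBU). AMIGO2, a leucine-rich adhesion protein at 113 CPM per kb without SCFA, kept 16.4%. Of 51 expressed genes in a list of matrix proteins and their enzymes none met the selection, which 107 of 9542 expressed genes did. The list does not hold VCAN, which encodes the matrix proteoglycan versican, was named after its values were seen, and was lowered from 421 to 626 CPM without SCFA to 91.2 to 132 CPM with SCFA (22.5% left). Of 44 expressed integrins, cadherins and guidance receptors in a list, ITGB6 and CDH6 met it.

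Genes of the interferon response, antigen processing and necroptosis numbered 10 and kept a median of 17.1%. GBP1, an interferon-induced GTPase, measured 18.6 and 18.1 CPM (Ctrl), 36.2 and 33.1 (TN), and between 1.98 and 3.27 CPM in the SCFA libraries. PSMB10, a catalytic subunit of the immunoproteasome, kept 10.3%, and NMI and IFI44L, which interferons induce, kept 13.5% and 14.9%. Of 47 expressed interferon-stimulated genes in the list 7, or 14.9%, were among the lowered genes and 14 had a ratio under 1/2, while the median ratio of the list was 0.95. UBA7, APOL6 and IFIT3 were the other members of the list.

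Transcription factors, chromatin proteins and parts of the transcription machinery were among the most numerous roles, with 16 genes and a median of 19.3% left. HDGF, a nuclear growth factor, was the most abundant of all the lowered genes per length at 210.5 CPM per kb of exon, and measured 758 to 813 CPM in the 4 libraries without SCFA and 166 to 192 CPM in the 8 with SCFA. HMGA2, an architectural chromatin protein of embryonic and transformed cells named after its values were seen, measured 870 to 1115 CPM without SCFA and 115 to 202 CPM with SCFA. CEBPD and ATF5, both leucine zipper factors, kept 16.4% and 17.5%. NSD1, a histone methyltransferase, kept 21.5%, BAZ2B, a bromodomain protein, kept 24.4%, and JADE2, a partner of histone acetyltransferases, kept 21.5%. HOXD10, a homeobox factor, kept 17.0%.

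The 16 enzymes, transporters and channels kept a median of 21.2%, and a pair of them stood well below the others. UGT2B7 measured 29.3 to 35.6 CPM without SCFA and 0.964 to 2.17 CPM with SCFA, and because its family holds near-identical copies, RSEM may have divided its reads among them. ENPP3, an ectoenzyme that splits extracellular nucleotides, measured 216 to 237 CPM without SCFA and 9.24 to 17.5 CPM with SCFA. FADS2, a fatty acid desaturase, kept 14.1%, the export pump ABCC3 kept 14.8% and the glutamine carrier SLC38A1 kept 23.7%.

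Among 11 cytoplasmic signalling genes, with a median of 19.4%, were the kinases JAK3 and IRAK1 at 19.0% and 23.2% and the adaptor AJUBA at 29.0%, each the single member of the JAK-STAT, NF-κB and Hippo lists. The 5 genes of ubiquitin-like conjugation and the proteasome kept a median of 21.5%, with the F-box protein FBXW4 lowest at 9.51%. The calcium-binding proteins S100A2 and S100A16, which lie 38996 bp apart on chromosome 1 and were the only pair of lowered genes within 100 kb of each other, kept 18.6% and 29.0%. Their levels per length were 104 and 98.5 CPM per kb without SCFA. TFPI and SERPINB8, both protease inhibitors, kept 11.9% and 13.9%.

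The 17 genes of other or no assigned role kept a median of 21.2%. They include TM4SF18 at 8.74%, SEC14L6 at 9.68%, C1orf186 (now RHEX) at 9.99% and IGFN1, a protein with immunoglobulin and fibronectin repeats at 150 CPM per kb without SCFA, at 18.9%. The 4 long non-coding RNAs kept 13.2% to 22.1%. HOXA-AS2 and C1RL-AS1 lie antisense to coding genes, and whether RSEM used the strand is not given in the sources used here, so reads of the 2 strands may not be separable. The overlapping coding genes were lower under SCFA as well, without meeting the selection: HOXA3 kept 25.4% and C1RL 33.3%, beside 22.1% for HOXA-AS2 and 15.0% for C1RL-AS1.

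Lists without any lowered gene included cell cycle and replication (74 expressed genes), DNA repair (64), apoptosis regulators (36), ribosome biogenesis (57) and glycolysis (26). With 107 of 9542 expressed genes lowered, lists of these sizes are too small for a count of 0 to show that they were spared. Genes with a ratio under 1/2 numbered 3, 2, 2, 2 and 0 in them, in the same order. The median ratios of these 5 lists lay between 1.02 and 1.26.

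**Figure D3:**
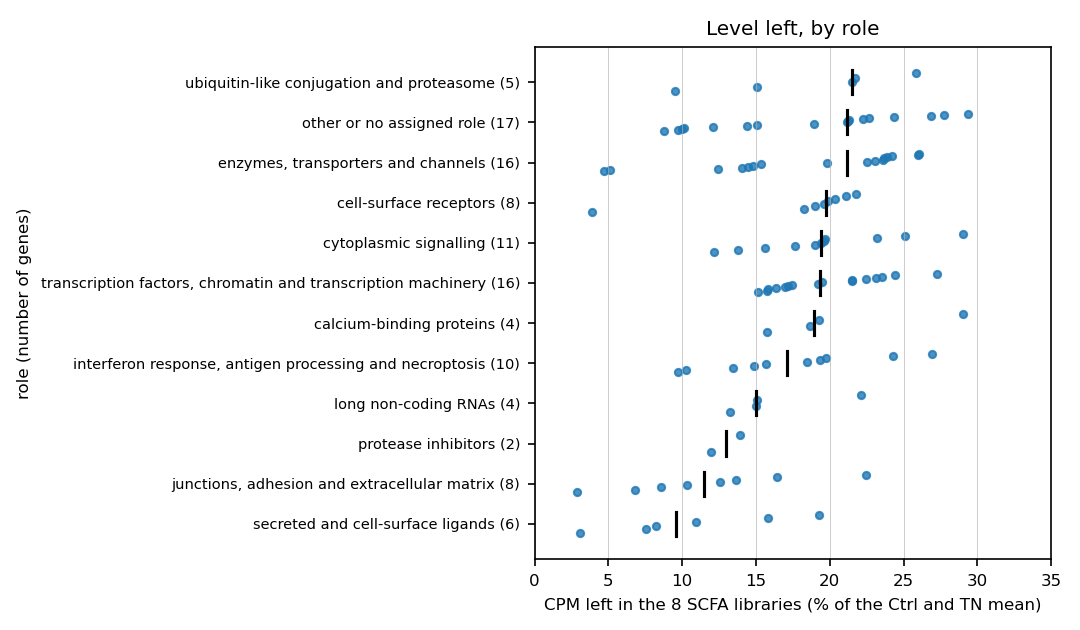
Share of the mean Ctrl and TN CPM left in the mean of the 8 SCFA libraries (%), 1 point per gene, by role, with a bar at the median of each role. Ligands (9.58%) and junction, adhesion and matrix genes (11.5%) have the lowest medians, and the points of most roles overlap.

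The genes resembled the other expressed genes in gene structure but not at their start sites. Their median span was 38129 bp against 34880 bp, their median canonical transcript 3304 against 3536 bases, and 103 of 107 were protein-coding. Promoters of broadly used genes are mostly CpG islands, while promoters poor in CpG are typical of genes used in some cell types. In the window from 250 bases before to 50 bases after the canonical start (GENCODE 44, GRCh38), the CpG ratio, which is the number of CG dinucleotides over that predicted from the C and G content, had a median of 0.68 in the 107 genes and 0.87 in 9517 expressed genes with a window. A ratio under 0.4, well below that of CpG islands, was found in 33 of 107 genes (30.8%) and in 4.92% of expressed genes. With limits of 0.3 and 0.5 the shares were 27.1% against 3.48% and 36.4% against 6.83%.

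The share with a ratio under 0.4 was smaller in genes with a smaller loss. It was 17.5% in 257 genes with an expression ratio from 1/3 to under 1/2, 4.04% in 2996 genes from 1/2 to under 1, and 4.26% in 6101 genes at 1 or more, from which the genes raised more than 3-fold in every SCFA library were left out. It was 16.1% in those 56 raised genes, so starts poor in CpG were not particular to lowered genes. Among the 107 genes, the 33 with a ratio under 0.4 kept a median of 14.4% and the other 74 kept 19.5%, and 14 of the 20 genes with the smallest expression ratios belonged to the 33. By role, 7 of 10 interferon and antigen processing genes and 5 of 8 junction genes were among them, but 1 of 16 transcription and chromatin genes and 0 of 5 ubiquitin-type genes. The stretches of ITGB6 and UGT2B7 printed above are of this kind.

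**Figure D4:**
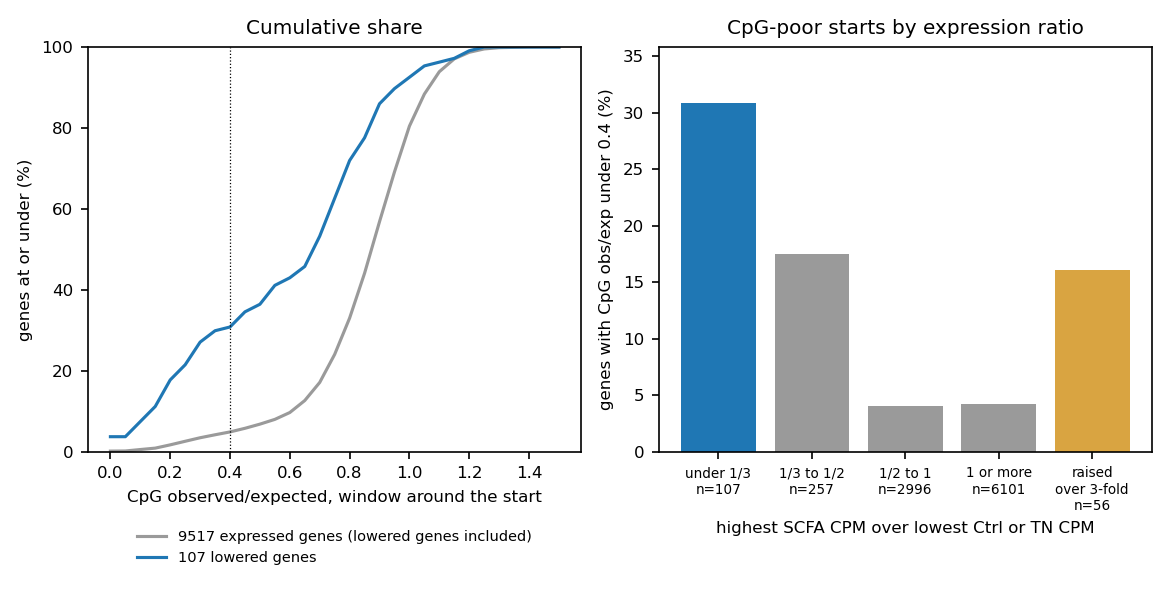
Left, cumulative share of genes (%) by CpG observed over expected in the window around the start, for the 107 lowered genes and 9517 expressed genes, with a dotted line at 0.4. Right, share of genes under 0.4 (%) by the ratio of the highest SCFA to the lowest Ctrl or TN CPM, 30.8% in the lowered genes, 4.04% and 4.26% in the middle classes and 16.1% in the genes raised more than 3-fold.

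Motifs were sought on both strands of the same window and describe letters only. The GC box GGGCGG, which overlaps CpG content, was present in 46.7% of the lowered genes, 76.3% of expressed genes and 30.4% of the windows of all 57383 genes. The ETS pattern CCGGAAG was present in 6.54%, 21.5% and 6.77%. The interferon element pattern TTCNNTTTC was found in 15 of the 107 lowered genes, 6.27% of expressed genes and 9.15% of all genes, and 7 of these 15 have an interferon or antigen processing role. The AP-1 pattern TGACTCA was present in 5.61%, 2.55% and 4.39%, the TATA box TATAAA in 9.35%, 4.80% and 16.9%, and the NF-κB pattern GGNNNTTCC in 19.6%, 23.3% and 16.3%.

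Most neighbouring genes kept over 50% of their level, but they moved in both directions. The share left ran from 24.8% for GBP3, beside GBP1, to 427% for LIPA, beside IFIT3. For 78 lowered genes the nearest other expressed gene lay within 100 kb, and these neighbours kept a median of 88.7% of their level, with 9 of them (11.5%) under 50%, against 7.87% of all expressed genes. In 5 cases the start of another expressed gene lay within 1000 bp in head-to-head orientation. ENPP3 kept 5.08% while MED23, whose start is 200 bp away, kept 73.4%. GPR143 kept 21.1% while SHROOM2, 132 bp away, measured 16.9 to 19.1 CPM without SCFA and 39.0 to 49.7 CPM with SCFA. LRRC41 and FADS2 had partners at 120% and 121%, and TAPBPL a partner at 48.2%.

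The first comparison that the selection did not make is TN against Ctrl, which asks how the genes respond to TNF-α alone. Of 107 genes, 7 rose and 1 fell (limma-voom over 24342 genes, fold over 1.5 and adjusted p under 0.05). Of expressed genes 1.23% rose and 0.335% fell, and of all tested genes 0.764% rose and 0.534% fell. The median of the 107 genes was 0.02 on the log2 scale, with 57 genes above 0, and with scaling by library size alone it was -0.04, with 44 above 0. CSF2 rose 2.37-fold (log2 1.24 ± 0.17 SE, adjusted p = 0.00128) and CLEC4E 2.29-fold (log2 1.20 ± 0.13 SE, adjusted p = 0.000348). AMIGO2 rose 2.01-fold, GBP1 1.96-fold, CSF1 1.95-fold, SERPINB8 1.78-fold and IL7R 1.51-fold, with adjusted p between 6.52e-06 and 0.000612. C14orf105 (now CCDC198) fell by 0.68 on the log2 scale (adjusted p = 0.000804).

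In each of these 8 genes the libraries of TN and Ctrl did not overlap. The genes were picked by the test of the same libraries, so this is no separate support for the calls. Every SCFA library lay under both groups, as the selection requires. Among the list of cytokines and growth factors, 13 of 37 expressed genes rose with TNF-α and none fell, 2 of the 13 being CSF2 and CSF1. Of 47 expressed interferon-stimulated genes 2 rose, GBP1 among them. TNFSF10 measured 1.63-fold higher in TN (log2 0.70 ± 0.20 SE) with an adjusted p of 0.0811 and did not pass. CDH6 was 1.48-fold lower with an adjusted p of 0.0351 and stayed under the fold limit. CSF2 did not pass with DESeq2, and IL7R, close to the limit of 1.5-fold, did not pass with scaling by library size alone or without Ctrl replicate 1 or TN replicate 1. Conversely, TNFSF10 passed with no filter beyond a count of 1 (adjusted p = 0.0142). In a fit of TN and Ctrl alone, TNFSF10 (adjusted p = 0.00108) and RASGRP1 (log2 0.63, adjusted p = 0.00272) passed. CDH6 passed with library size alone (adjusted p = 0.0192), and these fits all used limma-voom. HOXA-AS2 passed in the lower direction with library size alone and without Ctrl replicate 2 or TN replicate 2.

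Propionate and butyrate, whose chain is 1 carbon longer, were compared at each time of addition, 2 pairs in all, at doses of 15 mM and 3 mM that are not matched. The selection set an upper limit on every SCFA library, so these levels are not free of it. It gave 115 or 111 genes without BUTN replicate 1 or 2, and 107 without either PRTN library. For addition before TNF-α, 101 of 107 genes had a lower fitted level in PRTN than in BUTN, with a median difference of -0.28 on the log2 scale, where all expressed genes had a median of 0.00. Both PRTN libraries lay under both BUTN libraries in 85 genes (79.4%), against 31.6% of expressed genes, and no gene lay the other way. Of the 107 genes 2 passed the test in the lower direction and 0 in the higher, with 0.127% of all tested genes lower and 0.0411% higher. IGFN1 was 1.85-fold lower in PRTN (log2 -0.88 ± 0.13 SE, adjusted p = 0.0183), with 264 and 263 CPM (PRTN), 490 and 481 (BUTN), 284 and 289 (TNPR), and 274 and 412 (TNBU), after 1965 and 2071 (Ctrl) and 1717 and 1521 (TN). SERPINH1 was 1.63-fold lower (log2 -0.71 ± 0.13 SE, adjusted p = 0.0422), and did not pass in limma-voom with the replicate number as a block (adjusted p = 0.0548) or with no filter beyond a count of 1 (adjusted p = 0.0689).

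Of the 107 genes 39 had an unadjusted p under 0.05, as did 1995 of 9542 expressed genes. CSF1 was 1.55-fold lower in PRTN with an adjusted p of 0.0648, and the ligands as a group had a median of -0.55 with all 6 lower. The 95% interval of the difference lay within 1.5-fold in either direction for 44 genes and within 2-fold for 94. Neither call held when any of the 4 libraries was left out, and a fit of PRTN and BUTN alone called 9 genes lower, CSF1, CSF2, CLDN2 and CDH6 among them. With edgeR FADS2 passed as well, and with DESeq2 FADS2 and CSF1.

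For addition after TNF-α, the median difference TNPR against TNBU was -0.05, 44 of 107 genes were higher in TNPR, and TNPR lay under TNBU in both libraries for 23 genes (21.5%, against 16.1% of expressed genes). The sign of this median changed with the library left out: it was -0.22 without TNPR replicate 1 (20 genes higher in TNPR), 0.04 without TNPR replicate 2 (61 genes), 0.02 without TNBU replicate 1 (59 genes) and -0.18 without TNBU replicate 2 (29 genes). None of the 107 genes passed with limma-voom, edgeR or DESeq2, and of all tested genes 0.00822% passed in either direction. An unadjusted p under 0.05 was found in 7 of the 107 genes and in 1020 of 9542 expressed genes. The intervals lay within 1.5-fold for 69 genes and within 2-fold for 100, so for most of them a 2-fold difference between the compounds lay outside the interval. CLDN2 and CSF2, whose TNPR libraries differ most, had intervals on the log2 scale from -0.82 to 1.97 and from -0.76 to 1.94.

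The time of addition was compared within each compound, where cells also differ in the time since TNF-α. For propionate, the median difference of TNPR against PRTN was -0.03. None of the 107 genes passed with limma-voom, edgeR or DESeq2, while 0.16% of all tested genes passed in either direction. An unadjusted p under 0.05 was found in 10 of the 107 genes and in 1364 of 9542 expressed genes. TNPR lay under PRTN in both libraries for 21 genes (19.6%, against 27.4%). CTSS, the lysosomal protease cathepsin S, named after its values were seen, measured 24.0 and 25.8 CPM (PRTN) and 37.1 and 32.7 (TNPR), a 1.38-fold difference with an adjusted p of 0.0381 under the fold limit. The median was -0.17 without TNPR replicate 1, with 28 genes higher in TNPR, and 0.06 without TNPR replicate 2, with 64 genes higher, against 42 with all libraries. Without TNPR replicate 2, 1 gene passed in the higher direction, ENPP3. The intervals lay within 2-fold for 101 genes.

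For butyrate, 95 of 107 genes were lower with the later addition, with a median of -0.26, and TNBU lay under BUTN in both libraries for 60 genes (56.1%, against 21.5% of expressed genes). Of the 107 genes 2 passed in the lower direction and 0 in the higher, where 0.173% of all tested genes were lower and 0.0945% higher. CSF1 was 1.89-fold lower in TNBU (log2 -0.92 ± 0.15 SE, adjusted p = 0.0145) and CDH6 1.87-fold lower (log2 -0.90 ± 0.18 SE, adjusted p = 0.0398). Neither passed when TNBU and BUTN were fitted alone (limma-voom, adjusted p = 0.131 and 0.14), and CDH6 did not pass with no filter beyond a count of 1 (adjusted p = 0.059). CSF2 was 3.36-fold lower and CLDN2 3.05-fold lower, with adjusted p of 0.179 and 0.233. The count depended on the TNBU libraries, whose replicate 1 was the higher for most of these genes: it was 13 without TNBU replicate 1, 1 (IGFN1) without replicate 2, and 0 without either BUTN library. The median was -0.31 with 97 genes lower without TNBU replicate 1, and -0.17 with 82 genes lower without replicate 2. This comparison and that of PRTN with BUTN share the BUTN libraries.

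The difference between the compounds was then compared between the times. None of the 107 genes passed, 0 passed with edgeR and DESeq2, and 0% of all tested genes passed. An unadjusted p under 0.05 was found in 15 of the 107 genes and in 184 of 9542 expressed genes. The median was 0.20 on the log2 scale with 98 of 107 genes above 0, and the median 95% interval extended 0.48 to either side. The median was 0.10 with 75 genes above 0 without TNPR replicate 1, 0.32 with 98 without TNPR replicate 2, 0.30 with 94 without TNBU replicate 1, and 0.14 with 74 without TNBU replicate 2. Without TNBU replicate 2, 1 gene passed, IGFN1.

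**Figure D5:**
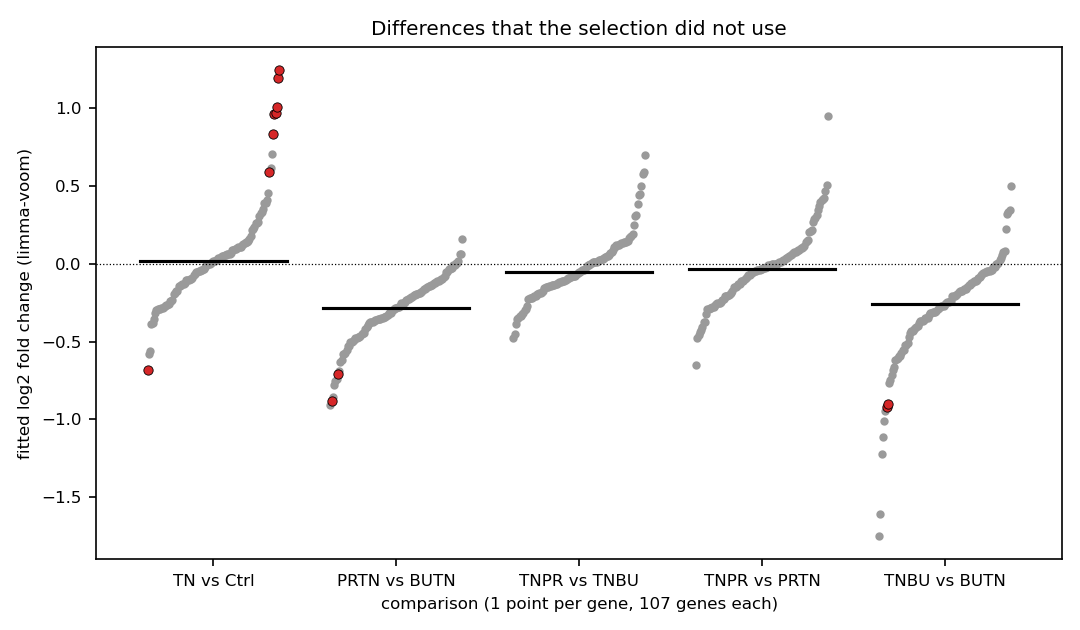
Fitted log2 fold change of each of the 107 genes in the 5 comparisons that the selection did not make. Points are sorted within a comparison, with a bar at the median. The selection did use the levels of all 6 groups. Red points passed the test: 8 in TN vs Ctrl, 2 in PRTN vs BUTN and 2 in TNBU vs BUTN, and the medians of the latter 2 are -0.28 and -0.26.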

How the data were processed

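RNA of HK2 cells was sequenced from stranded mRNA libraries in 6 groups of 2 biological replicates. The authors aligned reads to GRCh38 with STAR 2.6.1a, counted genes of GENCODE 26 with RSEM and deposited expected counts, of which 19.3% are not exactly whole numbers as written. Quality was read with FastQC 0.11.5, per the labels.

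CPM was the expected count over the library sum times 1000000. The differences between groups were fitted with limma 3.58.1 (voom, TMM factors 0.913 to 1.06 from edgeR 4.0.16, a mean for each of 6 groups, prior degrees of freedom 6.12) in R 4.3.3, after removing 33936 genes with a geometric mean count under 1. A gene passed at a fold over 1.5 and a Benjamini-Hochberg adjusted p under 0.05 over 24342 genes. The p-values measure the spread between these replicates only, and intervals are 95% from the moderated statistics. The edgeR quasi-likelihood test and DESeq2 1.42.0 were run on rounded counts as alternatives. On simulated counts for TN vs Ctrl over 24342 genes, limma-voom found 59% of 2-fold and 80% of 4-fold changes, with 8 false calls.

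Gene models came from GENCODE 44 (57392 identifiers matched, all 107 lowered genes among them), and start windows from GRCh38. Printed promoters came from RefSeq, whose table held 84 of the 107 genes. Figures were drawn with matplotlib 3.10.9.

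The members, roles and gene lists were chosen with earlier results of these data known, so counts over lists are descriptions. Genes named are the 15 with the smallest ratios, the 8 most abundant per kb, those that passed a test, list members (the 4 with the smallest ratios where a list held over 5), those next to the threshold, and families or neighbours. Others were named after their values were seen. Replicate numbers were not treated as pairs. Over all tested genes, deviations of same-numbered libraries correlated between -0.0334 and 0.0670, which does not exclude pairing.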

Additional observations from a re-analysis of the deposited data

How the results depend on the processing

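Each count was recomputed with edgeR, DESeq2, other scaling, other filters, the groups compared alone, the replicate number as a block and each library left out. No gene that passed changed direction. Medians close to 0 did: TN vs Ctrl, 0.02, became -0.04 with library size alone, TNPR vs TNBU, -0.05, became 0.04 without TNPR replicate 2 and 0.02 without TNBU replicate 1, and TNPR vs PRTN, -0.03, became 0.06 without TNPR replicate 2. In TN vs Ctrl, 7 to 10 genes passed under every alternative. In PRTN vs BUTN the main count of 2 became 4 with DESeq2, 9 with only the groups compared, 1 with no filter beyond a count of 1, 1 with the replicate block and 0 whichever library was left out. In TNBU vs BUTN the count of 2 became 8 with DESeq2, 4 with the replicate block, 1 with no filter, 0 with only the groups compared and 0 to 13 over the fits that left out a library. In TNPR vs PRTN and in the difference of differences, 0 became 1 without TNPR replicate 2 and without TNBU replicate 2. The causes of these changes were not tested. With 1 library left in a group, its spread is assumed to be that of the other groups.

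The block ended the call of SERPINH1 in PRTN vs BUTN and added LRIG3 and IFIT3 in TNBU vs BUTN, and changed no other call. Same-numbered libraries were not treated as pairs, although over the 107 genes the deviations of TNPR and TNBU correlated at 0.592. For the other pairs of groups the correlations were -0.298 to 0.35. The 107 genes became 366 with a limit of 1/2, 54 with 1/4, 124 and 85 with floors of 5 and 20 CPM, 145 and 136 with TMM and relative log expression scaling, and 107 to 115 with a library left out. Other scaling moved the median of all genes by at most 0.06 on the log2 scale.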
